A study of Mus musculus with 19 samples.

Results

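Chemokines are small secreted proteins that attract leukocytes and microglia along a concentration gradient. They act on receptors coupled to inhibitory G proteins, and most are induced in microglia, astrocytes or invading cells by cytokines, interferon or damage. Of the chemokines described here, Cx3cl1 (fractalkine) is the exception. Brain neurons make it constitutively, carry it on their membrane and signal through it to the microglial receptor Cx3cr1. The 10 chemokine genes described here are Ccl2, Ccl3, Ccl4, Ccl5, Ccl6, Ccl9, Ccl12, Cxcl10, Cxcl16 and Cx3cl1. They were picked by name out of 48709 genes with raw counts, through GENCODE M21 symbols of the Ensembl identifiers, and all 10 were found.

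RNA from microdissected CA1, a field of the hippocampus, was sequenced in 19 libraries from mice aged 7 months. WT control (n = 6) were wild-type littermates and APP control (n = 6) were APPPS1-21 mice, both injected in the dorsal hippocampus with lipid nanoparticles that carried a control oligonucleotide. APP anti-miR-mix (n = 7) were APPPS1-21 mice injected in the same way with oligonucleotides against miR-148a-3p and against both miR-146a-5p and miR-181a-5p. APPPS1-21 mice express mutant human APP and presenilin 1 from a Thy1 promoter in neurons and deposit amyloid. All groups thus had an injected hippocampus, and no uninjected group entered the comparisons. Titles of the wild-type samples mention the anti-miR-mix as well as control, and the study's account of a control oligonucleotide was followed. No sex, strain or litter is given per library, so p-values measure the spread between these samples.

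The mouse genes related to the transgenes separated the groups by genotype. Thy1 ranged from 18117 to 20734 normalized counts in WT control and from 36153 to 62866 in the 13 transgenic libraries, and App from 49038 to 54801 against 65315 to 80752. Total counts per library ran from 19362343 to 37018917. Summed markers of CA1 pyramidal neurons lay between 21697 and 35438 normalized counts in every group, and those of the dentate gyrus between 978 and 3397. Several libraries stood apart in ways that touch the chemokines. APP control 5 carried neutrophil transcripts (S100a8 at 1210 normalized counts against at most 31.9 elsewhere), WT control 1 had the highest summed T and NK cell markers (311, group median 79.2), and WT control 5 and APP anti-miR-mix 6 held choroid plexus transcript Ttr at 1443 and 1084. Results of the 10 members whose call or direction changed without APP control 5 or without WT control 1 are therefore given with and without that library. For the genes of other lists the values without them are not given.

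The genes lie in few places (GRCm38, GENCODE M21). Ccl9, Ccl6, Ccl3 and Ccl4 are neighbours within 91765 bases of chromosome 11, from 83572919 to 83664683. Ccl5 (11, 83525778 to 83530518) lies just before them, and Ccl2 and Ccl12 share a further stretch of 67830 bases on the same chromosome (82035571 to 82103400). Cxcl16 (11, 70453983 to 70459984), Cxcl10 (5, 92346638 to 92348889) and Cx3cl1 (8, 94772009 to 94782427) stand alone. Of the windows of 50 bases in their annotated exons, the length of a read, none recurred in another gene for 7 members. For Ccl9 1.97% recurred, for Cxcl10 3.59%, all in Art3 on the other strand, and for Cxcl16 16.9%, all in Zmynd15. The library kit does not mark strand, so reads from Cxcl16 and from the Zmynd15 exons within it could not be told apart. Zmynd15 itself had a mean of 47.6 normalized counts and was higher in APP anti-miR-mix than in WT control (log2 0.58, DESeq2 adjusted p = 0.0437).

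The upstream sequences of 4 members are shown because these genes fall into the contrasting patterns described below. Ccl3, Ccl6 and Ccl9 rose with the transgenes, whereas Cxcl10 followed interferon-induced genes in single animals. Each is the stretch of 250 bases before the RefSeq start (GRCm38.p6), 5′ to 3′ along the gene. Capitals mark matches on either strand to the NF-kB consensus, to the AP-1 site TGANTCA or to the interferon response core GAAANNGAA.
Ccl3 (chr11:83649379-83649628, minus strand): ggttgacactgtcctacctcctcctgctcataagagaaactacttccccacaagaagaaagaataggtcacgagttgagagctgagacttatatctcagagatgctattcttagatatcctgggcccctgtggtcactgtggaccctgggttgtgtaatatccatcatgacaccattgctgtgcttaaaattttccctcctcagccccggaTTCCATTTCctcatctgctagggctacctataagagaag
Ccl6 (chr11:83593088-83593337, minus strand): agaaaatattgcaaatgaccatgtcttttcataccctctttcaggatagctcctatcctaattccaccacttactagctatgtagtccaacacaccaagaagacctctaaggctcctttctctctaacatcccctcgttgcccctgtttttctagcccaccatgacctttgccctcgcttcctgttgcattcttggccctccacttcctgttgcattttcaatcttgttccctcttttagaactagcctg
Ccl9 (chr11:83578637-83578886, minus strand): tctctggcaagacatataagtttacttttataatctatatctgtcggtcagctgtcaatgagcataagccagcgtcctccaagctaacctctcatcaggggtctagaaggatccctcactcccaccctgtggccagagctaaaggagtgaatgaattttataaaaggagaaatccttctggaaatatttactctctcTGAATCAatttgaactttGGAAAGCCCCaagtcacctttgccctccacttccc
Cxcl10 (chr5:92348890-92349139, minus strand): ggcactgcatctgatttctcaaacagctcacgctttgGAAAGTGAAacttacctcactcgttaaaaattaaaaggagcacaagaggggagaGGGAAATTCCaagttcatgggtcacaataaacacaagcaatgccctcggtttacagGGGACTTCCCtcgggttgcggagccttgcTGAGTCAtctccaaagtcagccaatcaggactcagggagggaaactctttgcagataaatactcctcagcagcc

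The Cxcl10 promoter held 2 NF-kB matches, 1 AP-1 match and 1 interferon core. Ccl9 had 1 NF-kB and 1 AP-1 match, Ccl3 had 1 interferon core, and Ccl6, Ccl12 and Cx3cl1 had none of the 3. Over 32851 promoters of the same 300 bases (250 before and 50 after the start), 4.51% held the NF-kB consensus, 7.81% the AP-1 site and 8.56% the interferon core. Such matches describe letters and show no binding. Ccl2, Ccl4, Ccl5 and Cxcl16 had no entry among these promoters.

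The microRNAs that the mixture inhibits are shown with their seeds (bases 2 to 8) in capitals, together with the only seed match found in the members. The mature sequences are from RefSeq (GRCm38.p6) and the match is from the GENCODE M21 transcript. MicroRNAs lower the transcripts they pair with through this seed.
miR-181a-5p (chr1:137966468-137966490 and chr2:38852741-38852763, plus strand): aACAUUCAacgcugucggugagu
miR-148a-3p (chr6:51269829-51269850, minus strand): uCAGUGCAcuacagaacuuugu
miR-146a-5p (chr11:43374435-43374456, minus strand): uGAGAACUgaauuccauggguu
Ccl9, match to miR-146a-5p in capitals: aaatctttggaAGTTCTCcctgttcgata

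The Ccl9 match starts at base 1183 of a 3′ UTR of 2465 bases. The other 9 members had no match to any of the 3 seeds in their annotated 3′ UTRs. Of 21173 genes with such a UTR, 13.3% held a match to miR-146a-5p, 15.2% to miR-148a-3p and 18.5% to miR-181a-5p.

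None of the members was too low to be tested. All 10 passed the filter of 5 or more counts in 50% of the libraries or more. The thinnest values were those of Ccl3 and Ccl4 in WT control 2, at 6 and 5 raw counts, and every other library had at least 10 counts for every member. Counting error alone would give a coefficient of variation of at most 18.8% (Ccl3 and Ccl4 in WT control). The observed values reached 85.8% (Ccl2 in WT control), so for the variable members the spread between libraries was well above counting error. The genes too low to read lay outside the 10. Of 27 other chemokine genes 13 failed the filter, among them Ccl8 (at most 22 counts), Cxcl2 (18) and Cxcl11 (10), and so did 7 of 23 chemokine receptors.

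Levels between members can be compared only per length, as RPKM, normalized counts scaled by exon length and by the mean library total. In WT control Cx3cl1 stood at 161 ± 7.60 (SD, n = 6). The other 9 lay between 0.705 for Ccl9 and 4.35 for Ccl12, and Ccl12 (SD 2.55) and Cxcl10 (2.94 ± 2.24) did not differ beyond their spread. In APP control the order after Cx3cl1 (141 ± 10.95) was Ccl3 (10.4 ± 5.29), Ccl6 (10.04 ± 3.91), Ccl4 (5.27 ± 2.09), Ccl12 (5.03 ± 1.72), Cxcl10 (3.05 ± 1.69), Cxcl16 (1.84), Ccl2 (1.74), Ccl5 (1.66) and Ccl9 (1.07). Ccl3 thus went from rank 9 to rank 2 and Ccl6 from rank 8 to rank 3. With the longest transcript as length Ccl6 stood at 12.5 in APP control and went from rank 6 to 2, and Ccl3 from rank 9 to 3. Neighbours in that order overlapped within their SD apart from Cx3cl1, which was an order of magnitude above all others.

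**Figure D1:**
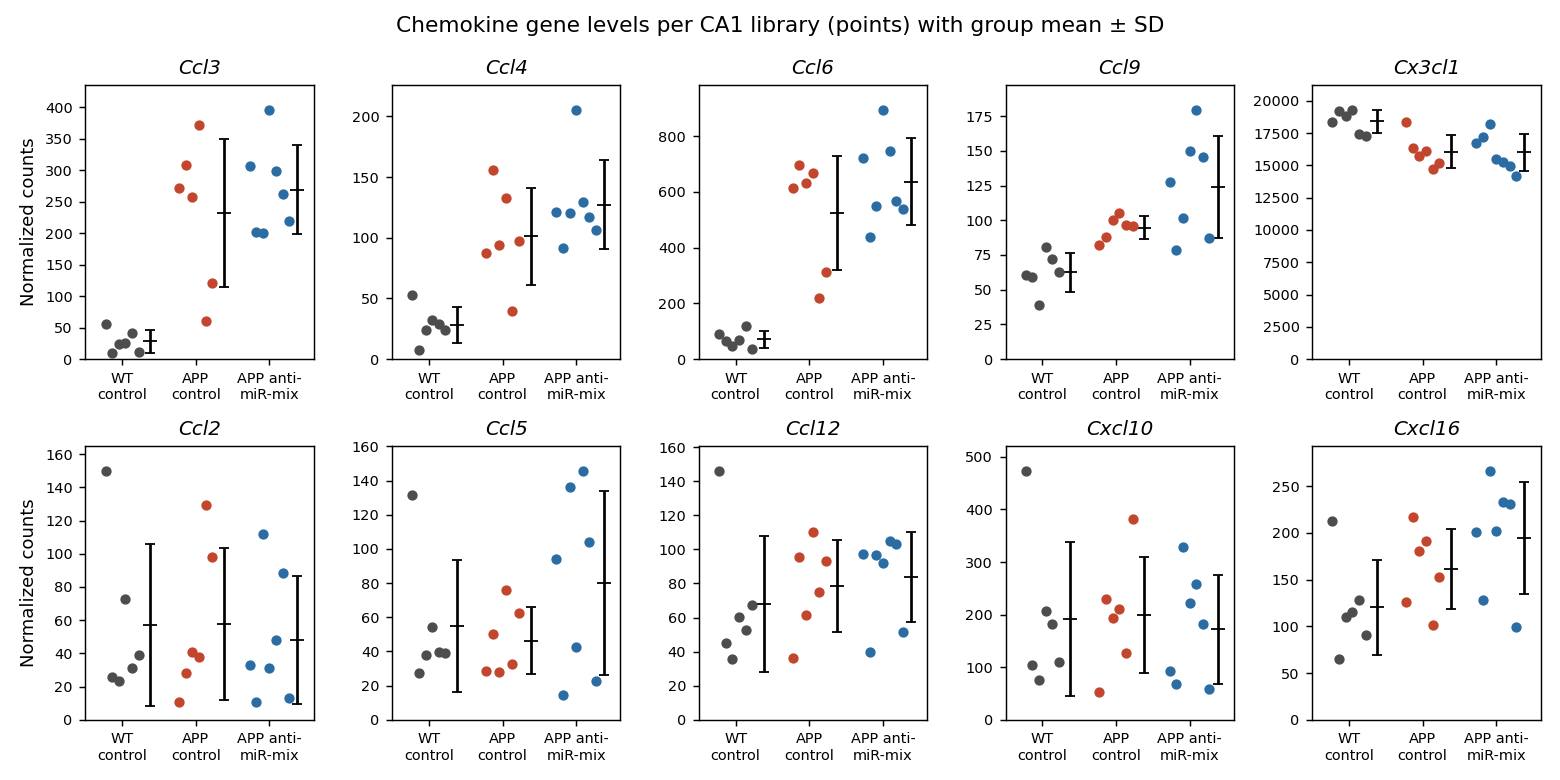
Normalized counts (vertical axis, linear, from 0) of the 10 chemokine genes in WT control, APP control and APP anti-miR-mix, with 1 point per library and the group mean ± SD beside the points. Ccl3, Ccl4, Ccl6 and Ccl9 are higher in the transgenic groups, Cx3cl1 is slightly lower, and Ccl2, Ccl5, Ccl12 and Cxcl10 scatter over the same range in all groups, with WT control 1 the highest of its group.

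The first comparison asked which chemokines differ between amyloid-bearing and wild-type CA1. Ccl3, Ccl4, Ccl6 and Ccl9 were higher in APP control and Cx3cl1 was lower, and the other 5 members did not pass the test. The counts were 4 higher and 1 lower of 10, where 4.71% of all 19297 genes tested passed (DESeq2, adjusted p under 0.05). The edgeR quasi-likelihood test called 3 of the 10, namely Ccl3, Ccl4 and Ccl6. The median log2 fold change of the 10 was 0.31, against -0.01 over all genes. The libraries of both groups did not overlap for Ccl3, Ccl6 and Ccl9, and 1.57% of all genes had no overlap in this comparison.

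Ccl3 (MIP-1α), a ligand of Ccr1, had 9.07 to 55.9 normalized counts in WT control (median 24.6) and 60.0 to 371 in APP control (median 264). The highest wild-type library lay just below the lowest transgenic one, APP control 5. The log2 fold change was 3.04 (SE 0.43, DESeq2 adjusted p = 8.57e-10), an 8.22-fold difference with a 95% interval of 4.58 to 14.7.

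Ccl4 (MIP-1β), a leukocyte attractant encoded beside Ccl3, had 7.56 to 53.0 in WT control (median 26.3) and 39.3 to 156 in APP control (median 95.7). A single transgenic library, again APP control 5, lay within the wild-type range. The fold difference was 3.54 (2.32 to 5.39, log2 1.82, SE 0.31, DESeq2 adjusted p = 6.02e-07).

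Ccl6, a mouse chemokine that acts on Ccr1, had 36.6 to 119 in WT control (median 67.2) and 219 to 697 in APP control (median 624). Within APP control 4 libraries lay between 615 and 697, and APP control 5 and 6 lay apart at 219 and 312. The log2 fold change was 2.87 (SE 0.31, DESeq2 adjusted p = 1.39e-16).

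Ccl9, a close relative of Ccl6 with the same receptor, showed a smaller difference. It had 39.2 to 80.7 in WT control (median 61.8) and 82.1 to 105 in APP control (median 96.3), so the groups were adjacent without overlap. Its log2 fold change of 0.59 (SE 0.20) was just past the threshold (DESeq2 adjusted p = 0.0495). The call was lost in edgeR (adjusted p = 0.102) and when WT control 1 (0.0685) or APP control 5 (0.0809) was left out, and in 13 of 19 fits that each left out 1 library.

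Cx3cl1 had 17289.7 to 19308 in WT control (median 18625) and 14747 to 18346 in APP control (median 15921). Of the 6 APP control libraries 5 lay below all wild-type libraries and APP control 1 lay within their range. The log2 fold change was small, -0.20 (SE 0.06), and also just past the threshold (DESeq2 adjusted p = 0.0487). edgeR did not call it (adjusted p = 0.131), and it was not called without WT control 1 (0.0644) or APP control 5 (0.129), nor in 13 of the 19 fits without 1 library. Of 6 neuronal markers 1 was lower in APP control, Gad1 (log2 -0.30, DESeq2 adjusted p = 0.00292), none was higher, and the list median was -0.10. In APP anti-miR-mix Gad1 was again the 1 of 6 lower (log2 -0.23, adjusted p = 0.0215, not called by edgeR at 0.0590), with a median of -0.13. The summed neuronal markers were at 241136 to 298816 normalized counts in WT control, 236608 to 263059 in APP control and 236991 to 249663 in APP anti-miR-mix, and their part in the Cx3cl1 values was not tested.

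In these bulk libraries more cells of a type and more RNA per cell cannot be told apart. Microglial markers moved with the risers. Of 10 microglial markers 8 were higher in APP control, none was lower, and the summed level in normalized counts was 11799 to 17824 (WT control), 16714 to 35794 (APP control) and 23354 to 36796 (APP anti-miR-mix), with no marker at 0. On the log2 scale with a pseudocount of 1, the mean of the markers differed by 0.80 between APP control and WT control. Relative to that mean, Ccl3 differed by 2.24, Ccl6 by 2.05, Ccl4 by 1.09 and Ccl9 by -0.17. The differences of Ccl3, Ccl6 and Ccl4 were thus larger than that of the marker mean, and that of Ccl9 was of its size. These are descriptions without a test, and the part of microglial number in the results was not tested.

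The libraries low in Ccl3 and Ccl6 were also low in these markers. Csf1r, the receptor for colony-stimulating factor on microglia, was at 5500 and 5457 normalized counts in APP control 5 and 6 and between 8954 and 10335 in the other 4. Neutrophil markers summed to 250 to 586 in WT control, 600 to 4169 in APP control (median 1205, highest in APP control 5) and 794 to 1293 in APP anti-miR-mix, with Ly6g at 0 in all APP anti-miR-mix libraries. Of 3 neutrophil markers that passed the filter 2 had no DESeq2 adjusted p, and the other, Csf3r, which microglia also express, was higher in both comparisons with WT control (log2 1.52 in APP control, DESeq2 adjusted p = 3.34e-11). Without APP control 5 the log2 fold changes were 3.23 for Ccl3, 1.98 for Ccl4 and 3.03 for Ccl6, with the calls kept. Border macrophage markers moved as well, with 2 of 7 higher in APP control, Cd163 (log2 1.23, DESeq2 adjusted p = 0.0182, not called by edgeR at 0.0694) and Pf4, and 4 of 7 higher in APP anti-miR-mix. Their list medians of the log2 fold change were 0.75 and 0.93, beside 0.85 and 0.93 for the microglial list. Summed, they were at 133 to 239 normalized counts in WT control, 155 to 464 in APP control and 243 to 436 in APP anti-miR-mix, and their part in the results was not tested. Summed astrocyte markers were at 48467 to 69643 in WT control, 69922 to 113576 in APP control and 69848 to 108539 in APP anti-miR-mix. Of these 6 markers 1 was called, Gfap (log2 1.44, DESeq2 adjusted p = 4.08e-08), which reactive astrocytes raise. Of 5 endothelial markers 1 was called, Flt1 (log2 0.30, DESeq2 adjusted p = 0.00828), all 5 were positive with a median of 0.28, and their sum was highest in APP control 5 (6124 normalized counts, group median 4048). None of 5 blood markers was called in APP control, although all 5 were positive with a median of 0.81 and a highest sum in APP control 5. The part of these cells in the results was not tested. Of 7 monocyte markers that passed the filter none was higher in APP control and 1 was lower, Fn1 (log2 -0.28, DESeq2 adjusted p = 0.00807), which other cells also express. The monocyte receptor Ccr2 was at 26.3 in WT control and 27.6 in APP control.

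Ccl2, Ccl12, Ccl5, Cxcl10 and Cxcl16 did not pass the test. Ccl2 (MCP-1), a ligand of Ccr2, had 23.5 to 150.1 in WT control and 10.7 to 129 in APP control, with medians of 35.2 and 39.4. Its interval for the fold difference ran from 0.417 to 2.43, and without APP control 5 its log2 fold change turned from 0.01 to -0.40 (adjusted p = 0.897). Ccl12 (MCP-5), a second Ccr2 ligand, ranged from 35.8 to 146 and from 36.3 to 110.2 (medians 56.4 and 84.2), with an interval from 0.750 to 1.77. Changes within those bounds could not be detected against this spread.

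Ccl5 (RANTES), typical of T cells and NK cells, had 27.2 to 131 in WT control and 28.2 to 76.0 in APP control (fold interval 0.413 to 1.72). Cxcl10, the interferon-induced ligand of Cxcr3, ranged from 75.1 to 474 and from 53.3 to 382 (0.509 to 2.12). Cxcl16, a membrane chemokine and ligand of Cxcr6, ranged from 65.0 to 213 and from 101 to 217 (0.940 to 1.90). WT control 1 was the highest wild-type library in 7 of the 10 members, these 5 among them. Without it the log2 fold changes of these genes lay between 0.22 for Ccl5, which changed sign, and 0.66 for Cxcl16, still without a call (lowest adjusted p = 0.0797).

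**Figure D2:**
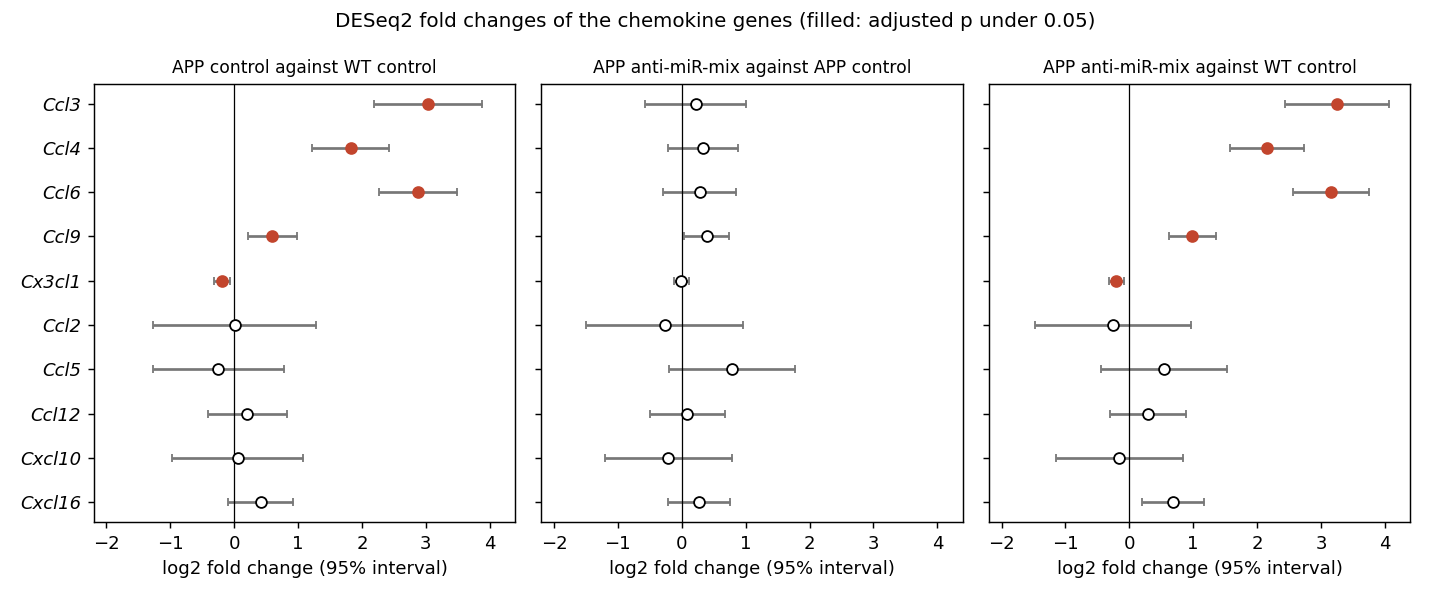
DESeq2 log2 fold changes (horizontal axis) of the 10 chemokine genes with 95% intervals in the 3 comparisons, with filled points for an adjusted p under 0.05. Ccl3, Ccl4 and Ccl6 stand at 1.82 or more in both comparisons with WT control, whereas no point is filled where APP anti-miR-mix is set against APP control.

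The second comparison asked whether inhibition of the 3 microRNAs changed these levels in APPPS1-21 mice. No member passed the test, and 0.0% of the 19297 genes did (0 by DESeq2 and 0 by edgeR, with 552 and 572 at an unadjusted p under 0.05). Without WT control 1, and likewise without APP control 5, DESeq2 called 1 gene, which was no member. All 10 adjusted p-values were 1. No member was without overlap between the groups, compared with 0.0207% of all genes.

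The ranges of the risers under the mixture overlapped those of APP control. Ccl3 had 200.04 to 396 normalized counts in APP anti-miR-mix (median 262), a 1.16-fold difference from APP control with an interval of 0.675 to 2.01. Ccl6 had 437 to 894 (median 566, 1.21-fold, 0.815 to 1.81) and Ccl4 had 91.2 to 205 (median 120.2, 1.26-fold, 0.859 to 1.85). Without APP control 5 the log2 fold change of Ccl3 was 0.02, that of Ccl4 0.17 and that of Ccl6 0.12.

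Ccl9, the member with a seed match to miR-146a-5p, had 78.6 to 179.5 in APP anti-miR-mix (median 128). Of these 7 libraries 4 lay above the highest APP control library and 1 below the lowest. The difference was 1.31-fold (1.03 to 1.68, log2 0.39, SE 0.18) and did not pass the threshold (DESeq2 adjusted p = 1). It was the only member with an unadjusted p under 0.05 here. Cx3cl1 was at 14179 to 18235 (median 15478), a fold of 0.996 with a narrow interval of 0.915 to 1.083.

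The variable members remained variable. Ccl5 had 14.7 to 146 in APP anti-miR-mix (median 94.2), the widest range of the 3 groups, with 4 of 7 libraries above all of APP control (1.73-fold, 0.872 to 3.42). Ccl2 had 10.5 to 112 (median 32.7), Ccl12 39.8 to 105 (96.7), Cxcl10 58.1 to 328 (181) and Cxcl16 98.8 to 267 (202). Their fold differences from APP control lay between 0.832 for Ccl2 and 1.21 for Cxcl16. Without APP control 5 the log2 fold change of Ccl2 turned to 0.15.

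Treated APPPS1-21 mice were then set against wild-type mice. This comparison shares its WT control libraries with the first. Ccl3, Ccl4, Ccl6 and Ccl9 were higher and Cx3cl1 lower, 5 of 10 members where 8.95% of all genes passed. The groups did not overlap for Ccl3, Ccl4 and Ccl6, compared with 3.42% of all genes. The log2 fold changes were 3.26 for Ccl3 (SE 0.42, DESeq2 adjusted p = 2.55e-12), 2.16 for Ccl4 (SE 0.30, 1.51e-10) and 3.16 for Ccl6 (SE 0.30, 5.99e-22).

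Ccl9 was at 1.98-fold (1.54 to 2.55, log2 0.99, SE 0.19, DESeq2 adjusted p = 8.56e-06), and edgeR called it as well (adjusted p = 0.00153). Cx3cl1 was at -0.20 on the log2 scale (SE 0.06, DESeq2 adjusted p = 0.0177), which edgeR did not call (0.0737). Over both transgenic groups all 13 libraries lay above the wild-type range for Ccl3 and Ccl6, 12 of 13 for Ccl4 and Ccl9, and 11 of 13 lay below it for Cx3cl1. Cxcl16 was just short of the threshold at 0.69 (SE 0.25, DESeq2 adjusted p = 0.0570). It was past it without WT control 1 (0.93, adjusted p = 0.00183) and without APP control 5 (0.69, adjusted p = 0.0435). The overlapping Zmynd15 was called higher in this comparison (log2 0.58, DESeq2 adjusted p = 0.0437), and its part in the Cxcl16 values was not tested. Without WT control 1 the uncalled Ccl2 and Cxcl10 turned from negative to 0.31 and 0.34.

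Most receptors of these ligands did not pass the test. Of 16 chemokine receptors that passed the filter 1 rose in APP control, Cx3cr1, the microglial receptor of Cx3cl1 (2119 against 3931 normalized counts, log2 0.89, SE 0.18, DESeq2 adjusted p = 4.56e-05). Against WT control 2 of the 16 were higher in APP anti-miR-mix, Cx3cr1 among them (log2 0.95). Ccr1, the receptor of Ccl3, Ccl5, Ccl6 and Ccl9, was low at 10.6, 17.6 and 19.5 normalized counts in WT control, APP control and APP anti-miR-mix (log2 0.72 in APP control, SE 0.55, DESeq2 adjusted p = 0.660).

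Cxcr6 (18.7, 22.2 and 25.5 normalized counts) and Cxcr3 (9.43, 10.3 and 10.3) were at low levels in all groups, with log2 fold changes of 0.24 and 0.11 in APP control and no call. Ccr2 had a log2 fold change of 0.06. Ccr3 failed the filter with at most 3 counts in a library.

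Genes that act after the receptors were read next. Of 14 genes for intracellular signalling from chemokine receptors 8 were higher in APP control and none lower, with a list median of 0.39. They included Pik3cg (phosphoinositide 3-kinase γ, log2 1.09), Was (0.96), Lyn (0.64), Dock2 (0.90), Rac2 (0.76) and Pik3r5 (0.60), with DESeq2 adjusted p between 1.72e-08 and 0.0213. These genes act in actin remodelling and migration of leukocytes and are expressed in microglia. Of 9 genes listed for a part in the release or trimming of chemokines 2 rose, the lysosomal protease Ctss (1.23, adjusted p = 5.98e-07) and Rhbdf1 (0.30, 0.0229). Ctss can release Cx3cl1 from the membrane. Against WT control 4 of the 9 were higher in APP anti-miR-mix, adding Adam17 (0.26) and Mmp12 (1.42), both named after their values were seen.

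Among 15 tested inducers of chemokine genes 4 rose in APP control, the transcription factor Irf8 (1.40, adjusted p = 1.08e-07), Il1a (0.77, 0.0315), Nfkb1 (0.23, 0.0431) and Tlr2 (0.84, 0.0434). None of 12 interferon targets was called in either comparison with WT control. In APP anti-miR-mix 11 were positive with a list median of 0.57, and in APP control all 12 were positive with a list median of 0.28. Of 14 other chemokines tested 1 rose, Pf4 (platelet factor 4, also made by macrophages at the brain border), from 7.43 to 21.5 normalized counts (log2 1.55, SE 0.50, adjusted p = 0.0399, not called by edgeR at 0.110). No gene of these lists was called between the transgenic groups.

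**Figure D3:**
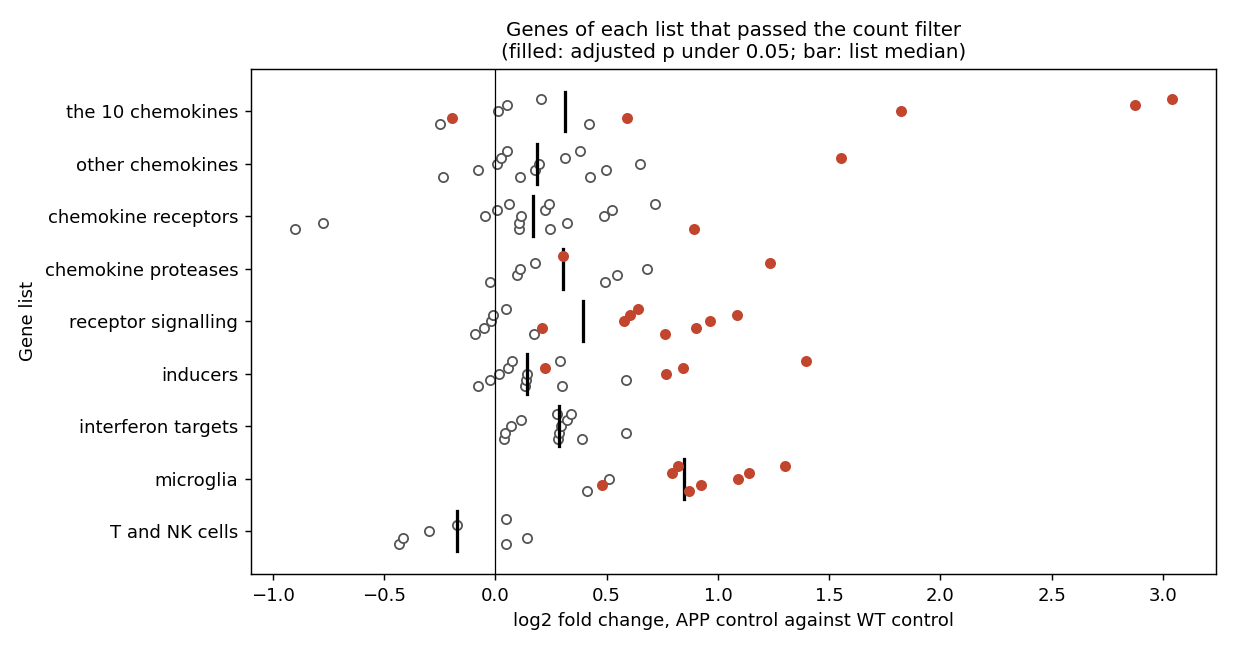
Log2 fold changes (horizontal axis) in APP control against WT control of the genes in each list that passed the count filter, 1 point per gene, with filled points for a DESeq2 adjusted p under 0.05 and a bar at the list median. The 10 chemokines spread from -0.25 (Ccl5) to 3.04 (Ccl3), while 8 of 10 microglial markers and 8 of 14 signalling genes are filled and none of the interferon targets or T and NK cell markers is.

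The genes around the members were read as well. Of 65 tested genes that start within 250000 bases of a member and are no chemokines, 2 were higher in APP control, none was lower, and the median log2 fold change was 0.01. They were Wfdc17 (2.31, SE 0.40, DESeq2 adjusted p = 1.10e-06), a small secreted protein gene expressed in activated macrophages, 41407 bases from Ccl4, and Arrb2 near Cxcl16 (0.21, adjusted p = 0.0379, not called by edgeR at 0.0774), which is also 1 of the 8 signalling genes. Ccl5, which borders the Ccl9 to Ccl4 stretch, was not called in any comparison. The other 16 of 17 tested neighbours of the Ccl members were not called in APP control. In APP anti-miR-mix against WT control 3 of the 65 were higher, Zmynd15 among them, and 2 were lower. Of the 17 near the Ccl members 1 was higher and 1 lower there.

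Within groups the members fell into sets that varied together from library to library, drawn up after the values had been seen. After group means had been removed from log2(normalized count + 1), Ccl3 correlated with Ccl6 at r = 0.85 and with Ccl4 at 0.84 over the 19 libraries. Ccl2, Ccl5, Ccl12, Cxcl10 and Cxcl16 correlated with each other at 0.52 to 0.84. Between both sets r ranged from -0.18 (Ccl2 and Ccl6) to 0.77 (Ccl4 and Cxcl16), so Ccl4 and Cxcl16 stood between them. Ccl9, placed in neither set, had an r of 0.40 (Cxcl16) to 0.58 (Ccl12) with the second and of 0.22 (Ccl3) to 0.38 (Ccl6) with the first. Cx3cl1 had an r of -0.30 (Ccl9) to 0.20 (Ccl6) with the other members. All points share their library and its size factor, and these values are descriptions.

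**Figure D4:**
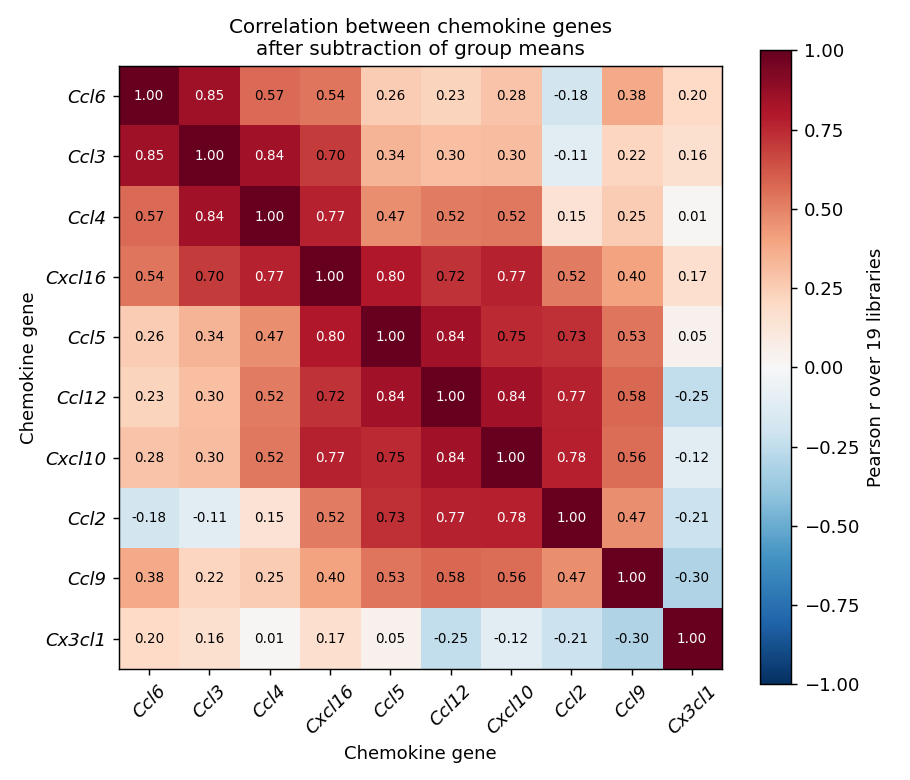
Pearson r between the 10 chemokine genes (both axes) over 19 libraries after subtraction of group means, on a colour scale from -1 to 1 with the value in each cell. Ccl6, Ccl3 and Ccl4 form a block at 0.57 to 0.85, and Cxcl16, Ccl5, Ccl12, Cxcl10 and Ccl2 a second at 0.52 to 0.84. Ccl9 has 0.40 to 0.58 with the second block and 0.22 to 0.38 with the first, and Cx3cl1 lies outside both.

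Ccl3, Ccl4 and Ccl6 followed the microglial list most closely. Ccl2, Ccl5, Ccl12, Cxcl10 and Cxcl16 followed the interferon or the T and NK cell list, and they and Ccl4 were close to more than 1. Against the mean of the 10 microglial markers, centred in the same way, r was 0.92 for Ccl6 (Spearman's rho 0.93, r 0.89 without the 2 farthest libraries). It was 0.87 for Ccl3, 0.74 for Ccl4, 0.70 for Cxcl16, 0.43 for Ccl9 and -0.07 for Ccl2 (rho 0.10). Without the 2 farthest, APP control 4 and 5, Ccl3 had 0.79, Ccl4 0.62, Cxcl16 0.68, Ccl9 0.58 and Ccl2 0.23. Against the mean of the 12 interferon targets, Cxcl10 had 0.94 (rho 0.94, r 0.93 without the 2 farthest), Ccl12 0.87, Ccl5 0.83 and Cxcl16 0.81. Ccl2 had 0.71, Ccl4 0.67 and Ccl9 0.58, while Ccl6 had 0.38. Without the 2 farthest Ccl12 had 0.79, Ccl5 and Cxcl16 0.73 each, Ccl2 0.59, Ccl4 and Ccl9 0.58 each and Ccl6 0.26. Against 10 T and NK cell markers, Ccl5 had 0.93 (rho 0.88, r 0.94 without the 2 farthest), Ccl12 0.86, Cxcl16 0.75, Cxcl10 0.72, Ccl2 0.67 and Ccl9 0.52. Without the 2 farthest Ccl12 had 0.79, Cxcl16 0.675, Cxcl10 0.67, Ccl2 0.67 and Ccl9 0.61. The summed T and NK markers were low, from 49.3 to 311 normalized counts, with Nkg7, Gzma and Klrb1c at 0 in some libraries.

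**Figure D5:**
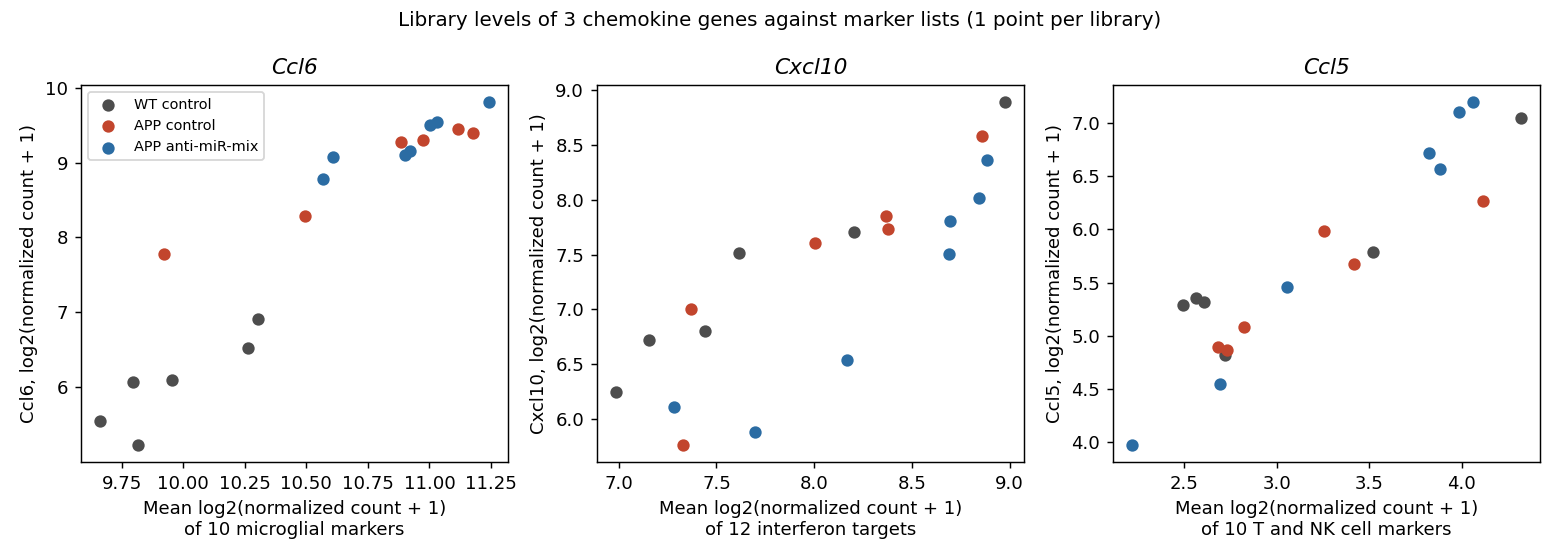
Log2(normalized count + 1) of Ccl6, Cxcl10 and Ccl5 (vertical axes) against the mean of microglial markers, interferon targets and T and NK cell markers (horizontal axes, same unit), with 1 point per library coloured by group. Ccl6 separates wild-type from transgenic libraries and rises with the markers within them, whereas Cxcl10 and Ccl5 follow their lists across the 3 groups with the groups intermingled.

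The genes most like each member were then listed. The 3 nearest to Cxcl10 among all tested genes were the interferon-induced Rsad2, Ifit1 and Gbp6 (r = 0.95 each), and those nearest to Ccl12 were Nlrc5, Gbp5 and AW112010 (0.90 to 0.92). Ccl5 lay nearest to Ptpn7 (0.96), Nkg7 (0.92) and Cd3g (0.91), lymphocyte genes that had means of 11.6 to 17.5 normalized counts. Ccl2 lay nearest to Slfn1, Lcn2 and Ptx3 (0.91 to 0.93), of which Lcn2 and Ptx3 are acute phase genes. Cxcl16 lay nearest to Parp3, S100a6 and Cd72 (0.92 to 0.93).

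Ccl3 was most like Klhl6 (0.94), Cst7 (0.93) and Lat2 (0.92), Ccl6 like Hvcn1 (0.96), Slc37a2 (0.95) and Fmnl3 (0.94), and Ccl4 like Gadl1 (0.86), Lat2 (0.86) and Ccl3. All of these were also called higher in APP control, by 0.60 (Fmnl3) to 4.25 (Cst7, an inhibitor of lysosomal cathepsins) on the log2 scale. Cx3cl1 was most like Extl1 (0.96), Tecpr1 (0.93) and Klhl34 (0.92), and Ccl9 like Ubxn4, Itm2b and Arhgef26 (0.83 each), none of which was called in APP control.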

How the data were processed

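The authors aligned single-end reads of 50 nt to mm10 with STAR (2.5.2b) and deposited raw counts per Ensembl gene made with featureCounts (Subread 1.5.1). The annotation release and the strand setting are not given in the sources used here. They also deposited a table of log2 values (18825 genes) that carries an unexplained adjustment by a whole number for each library. This table, and that adjustment number as a term of the fit, entered only as alternatives. The members and gene lists were chosen with earlier results of these data known. Named genes were all members, up to 6 called genes of each list and of the neighbours with the smallest adjusted p in APP control against WT control, 7 receptors of the members, and the 3 most correlated genes of each member with a mean of at least 50 normalized counts. A gene that this rule named is not reported here.

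The 19297 genes that reached 5 counts in 50% or more of the libraries were fitted in DESeq2 (1.42.0) with all 3 groups, Wald tests, unshrunken fold changes and Benjamini-Hochberg adjustment (0.05). Normalized counts are counts divided by DESeq2 size factors, and intervals are 1.96 SE. Outlier replacement changed no member. edgeR (4.0.16), limma (3.58.1), other filters and factors, and fits without each of the 19 libraries were alternatives. The DESeq2 step was tested on simulated counts. No 2 libraries matched within sampling noise (lowest chi-square per gene 4.46). A floor of 3 counts is the limit that a count of 0 allows and covers counting error only. R (4.3.3), Python (3.11.15), numpy (2.4.6), pandas (2.3.3) and scipy (1.17.1) were used.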

Additional observations from a re-analysis of the deposited data

Results flagged for a closer look

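Among 30 sets of values (10 genes in 3 groups), 4 held a library whose gap to the nearest other exceeded Dixon's 95% critical value, where chance gives about 1.5. WT control 1 was high for Ccl5 at 131 normalized counts (the others 27.2 to 54.1), for Ccl12 at 146 (35.8 to 67.4) and for Cxcl10 at 474 (75.1 to 208). The summed T and NK cell markers were highest of the 6 in that library as well, at 311. So was the mean of the 12 interferon targets, at 8.98 on the log2 scale against at most 8.21 in the other 5 and 8.89 in the transgenic libraries. Their part in these values was not tested. In APP anti-miR-mix 4, Ccl4 was high at 205 (the others 91.2 to 129). That library also had the highest summed microglial markers of its group, at 36796 (median 29352), and the highest summed blood (2136, median 888) and astrocyte markers (108539, median 91860), and their part was not tested.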

How the results depend on the processing

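Across 12 alternatives and 19 fits that each left out 1 library, Ccl3, Ccl4 and Ccl6 kept their direction and their call in both comparisons with WT control. No member was called between the transgenic groups. The size varied more. Over the 12 alternatives the log2 fold changes in APP control were 2.10 to 3.71 for Ccl3, 1.18 to 2.18 for Ccl4 and 2.43 to 3.27 for Ccl6. In APP anti-miR-mix against WT control they were 2.42 to 3.92, 1.48 to 2.51 and 2.76 to 3.56. In APP control against WT control 3 members instead of 5 were called in edgeR and also without WT control 1 and 5 together, and 3 to 5 when single libraries were left out. The calls of Ccl9 and Cx3cl1 were each lost in 13 of those 19 fits, with adjusted p up to 0.153 and 0.130, while their log2 fold changes stayed at 0.49 to 0.68 and -0.24 to -0.17. Cx3cl1 was also lost with TMM factors (0.0738) and without the filter (0.0520), and Ccl9 without WT control 5 and APP anti-miR-mix 6 (0.0540) and when the adjustment number was a term of the fit (0.0725). In treated mice against WT control, 3 of the 19 fits lost Cx3cl1 and 4 gained Cxcl16. Cx3cl1 was also lost without WT control 5 and APP anti-miR-mix 6 (0.0519), and Cxcl16 gained without WT control 1 and 5 (1.02, adjusted p = 0.00142). The causes were not tested.

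Genes called between the transgenic groups numbered 3 with only these groups fitted, 1 without WT control 1 and 5, and 0 to 3 with single libraries left out.

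Replicate numbers recur across groups, but only 10 of 18 pairs of same-numbered libraries had deviations correlated above 0.1 (-0.12 to 0.35), and 9 of 36 best matches had the same number. Replicates 1, 2 and 4 carried the same adjustment number in all 3 groups, but no source says what it or the replicate number marks, so the samples were not treated as paired. With the replicate block 1222, 1 and 2202 genes were called in the 3 comparisons in their order in the text and 786, 0 and 1579 in edgeR with the block, an alternative added after the data were seen. Under the block Cxcl16 was called in treated mice against WT control (0.83, adjusted p = 0.0114, but 0.0571 in edgeR), Ccl2 in APP control turned to -0.10 (-0.061 in edgeR) and Cx3cl1 between the transgenic groups to 0.020 (0.027 in edgeR).

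Signs of uncalled members turned in other fits too. In APP control against WT control, Ccl2 was at -0.12 without WT control 5 and APP anti-miR-mix 6 and at -0.31 with the adjustment number fitted, where Cxcl10 was at -0.056, and Ccl5 was at 0.22 without WT control 1 and 5. That last fit put Ccl2 at 0.25 and Cxcl10 at 0.47 in treated mice against WT control. Between the transgenic groups Cx3cl1 was at 0.011 without WT control 5 and APP anti-miR-mix 6, and Ccl2 at 0.015 with the adjustment number.

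With single libraries left out, the ranges in APP control against WT control were -0.40 to 0.58 for Ccl2, -0.45 to 0.22 for Ccl5 and -0.24 to 0.55 for Cxcl10. Between the transgenic groups they were -0.63 to 0.15 for Ccl2, -0.057 to 0.21 for Ccl12, -0.44 to 0.080 for Cxcl10 and -0.040 to 0.034 for Cx3cl1. In treated mice against WT control they were -0.62 to 0.31 for Ccl2 and -0.39 to 0.34 for Cxcl10. The RPKM in APP control with the longest transcript as length was 2.39 for Ccl5 and 167 for Cx3cl1. The spread between libraries limits Ccl2, Ccl5, Ccl12 and Cxcl10 more than depth does.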
